A study of Mus musculus with 4 samples.

Results

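The genes described here are 10 mouse genes for enzymes that remove ADP-ribose from proteins or make NAD, read in messenger RNA of oocytes at the germinal vesicle stage. They were chosen by name, though with earlier results of these data known. The set holds 6 genes for ADP-ribose removal (Parg, Adprh, Adprhl2, Macrod1, Macrod2 and Oard1) and 4 for NAD synthesis (Nampt, Nmnat1, Nmnat2 and Nmnat3). All 10 had a row in the count table, which lists 55453 genes. The study set 2 libraries of Parp12 knockdown oocytes against 2 libraries of control oocytes, whose genotype label is WT. In both groups the cells were oocytes taken directly from the ovary, and the comparison asks which transcripts differ after Parp12 knockdown. The sources used here do not give the method of knockdown, the strain and age of the mice, or whether animals were pooled.

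ADP-ribosylation uses NAD: PARP enzymes cut NAD and attach its ADP-ribose part to a target, as a single unit or as a chain. Parp12 encodes a PARP that attaches single units. The removal enzymes reverse this step and divide the work by bond. PARG cuts the chains, the product of Adprhl2 (also called ARH3) frees serine, that of Adprh (ARH1) frees arginine, and the macrodomain enzymes of Macrod1, Macrod2 and Oard1 (also called TARG1) free acidic residues. NAD is rebuilt from nicotinamide by NAMPT, the slow step of salvage, and then by an NMNAT. The NMNAT enzymes differ by place, with that of Nmnat1 in the nucleus, that of Nmnat2 at the Golgi and in the cytosol, and that of Nmnat3 in mitochondria.

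The knockdown libraries held 42576499 and 35805122 counts, and the control libraries held 45230773 and 40938363. Parp12, the targeted gene, had 32 and 86 counts in the knockdown libraries, against 14279 and 9419 in the controls. Its log2 fold change was -7.51 (SE 0.34, adjusted p 1.27e-07 by edgeR's quasi-likelihood test), in the direction of the labels. With limma-voom its log2 fold change was -7.73 and its adjusted p of 0.280 missed the threshold. All 12 listed oocyte markers had counts, and their summed level in CPM (counts scaled to a library total of 1000000) was 25597 and 26152 in the knockdown libraries and 24052 and 24972 in the controls. The highest was Gdf9. Granulosa and cumulus markers summed to 134.6 and 154.1 CPM in the knockdown libraries and 167.7 and 155.5 CPM in the controls. Of these 18 markers, 8 were at 0 counts in all libraries, among them Amh, Foxl2 and Inhba. The highest, Nr5a2, averaged 99.7 ± 12.6 CPM in the knockdowns and 110.4 ± 9.98 CPM in the controls (SD, n = 2 each). Theca and stroma markers (9 of 12 with counts) summed to 2.58 and 3.38 CPM in the knockdown libraries and 3.29 and 6.45 CPM in the controls, with Star the highest. Blood and endothelial markers (6 of 10 with counts) summed to 111.2 and 106.8 CPM in the knockdown libraries and 113.6 and 110.8 CPM in the controls, most of it from Pecam1. In bulk RNA, fewer cells of a type and less RNA per cell cannot be told apart, and the part of other cells in the members' values was not tested.

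Levels are first given per length, as CPM per kilobase of exon, since the genes differ in length. On this scale the 6 removal genes together stood above the 4 NAD genes. The removal genes summed to 81.2 and 89.9 in the knockdown libraries and 79.9 and 86.3 in the controls. The 4 NAD synthesis genes summed to 5.89 and 5.57 in the knockdown libraries and 5.82 and 4.49 in the controls. The removal sum was between 13.7 and 19.2 times the NAD sum in each library, for 6 genes against 4. Of the removal genes, 5 lay above every NAD gene in every library, and Macrod1 was the exception.

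Adprh led the order with a mean of 26.4 CPM per kilobase over the 4 libraries, at the 86.1st percentile of the tested genes. Oard1 (20.4) and Macrod2 (20.2) followed, and their ranges over libraries overlapped. Parg (8.50) and Adprhl2 (6.63) overlapped as well. Nampt (2.79), Macrod1 (2.13) and Nmnat2 (1.80) formed a run in which each range overlapped the next. Nmnat1 averaged 0.809 and reached the range of Nmnat2 only in knockdown replicate 1. Nmnat3 came last at 0.0498, below the lowest library of Nmnat1, and at the 0.889th percentile of the tested genes.

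**Figure D1:**
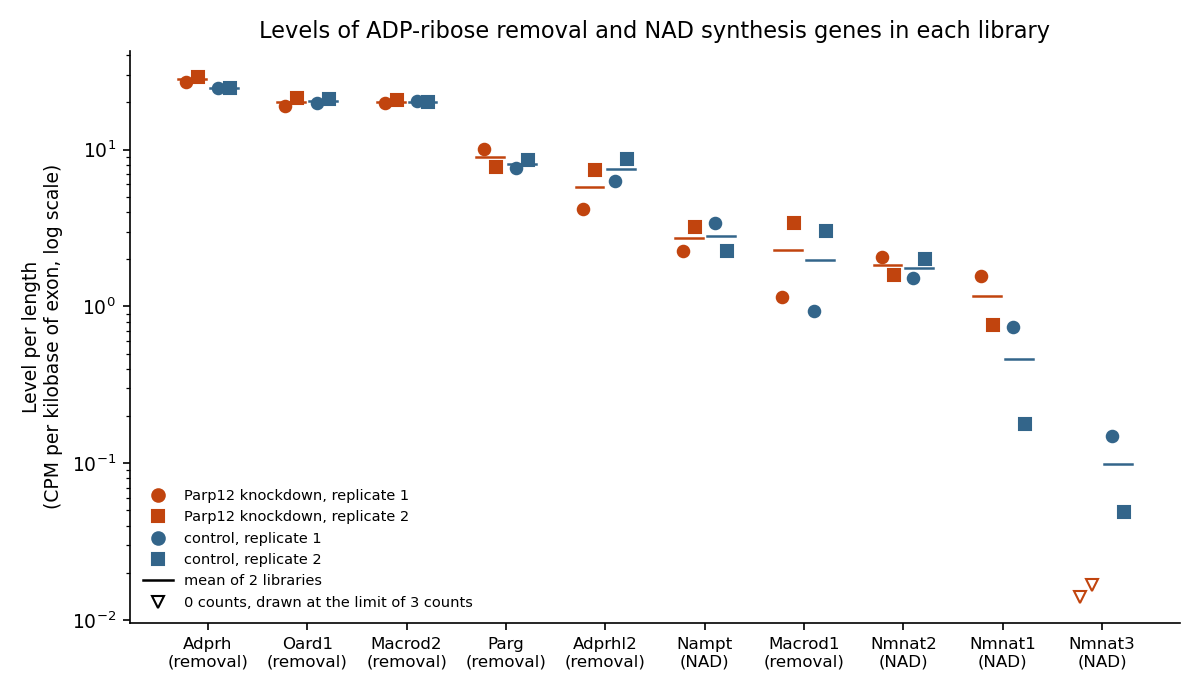
Level per length of each gene in each library, in CPM per kilobase of exon on a log axis, with knockdown libraries left of controls; bars are means of 2 libraries and open triangles mark 0 counts at the limit of 3 counts. The levels span from 26.4 CPM per kilobase for Adprh to 0.0498 for Nmnat3, and the groups lie over each other for most genes.

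The loci differed in how far their reads can be told from those of other genes. None of the 10 shared an exonic base with another gene of the table, on either strand. Of their 50-nucleotide stretches, 0% occurred in annotated transcripts of other genes for 6 members. The share was 4.70% for Nmnat1, 3.01% for Adprh, 1.44% for Macrod2 and 0.0852% for Nmnat2. RefSeq promoter windows (250 bases before to 50 after a start in RefSeq, GRCm38.p6) were at hand for 9 members. Those starts need not be the starts of the genes as counted. Every window of the 9 held at least 13 CG dinucleotides, against a median of 7 over the first listed window of 27025 genes. A window with 13 stood at the 62.3rd percentile of those genes. Over all those genes, 43.9% had 10 or more. The number of CG did not follow the order of levels. The window of Nampt held 36, those of Nmnat1 held 28, and those of Oard1 held 23 and 13. The windows of Macrod2 and Nmnat3, the members with the highest and lowest CPM, are shown with their CG dinucleotides in capitals.
Macrod2, chr2:140395180-140395479, plus strand, 33 CG: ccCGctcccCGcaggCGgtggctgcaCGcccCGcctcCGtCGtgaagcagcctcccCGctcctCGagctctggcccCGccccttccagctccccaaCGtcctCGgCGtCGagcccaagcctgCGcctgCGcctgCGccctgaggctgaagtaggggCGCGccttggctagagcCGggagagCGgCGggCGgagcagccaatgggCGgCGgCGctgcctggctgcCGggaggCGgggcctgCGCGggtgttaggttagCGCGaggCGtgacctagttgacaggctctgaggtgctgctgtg
Nmnat3, chr9:98296320-98296619, plus strand, 13 CG: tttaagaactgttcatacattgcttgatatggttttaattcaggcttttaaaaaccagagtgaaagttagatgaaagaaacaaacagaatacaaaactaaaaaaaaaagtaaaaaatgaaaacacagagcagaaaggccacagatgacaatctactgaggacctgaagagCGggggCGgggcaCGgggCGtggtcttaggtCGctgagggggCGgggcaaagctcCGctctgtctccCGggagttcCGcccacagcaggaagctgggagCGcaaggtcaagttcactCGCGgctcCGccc
The first CG dinucleotide of Macrod2 is at base 3 of its window, and that of Nmnat3 is at base 171. The Nmnat3 window begins inside the gene as counted, which starts upstream at 98287435. The Nampt window (from 32820085) and a window of Oard1 (from 48410200) also begin inside their genes as counted. The Macrod2 window runs across the counted start of its gene, at 140395309.

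None of the 10 members passed edgeR's test (adjusted p under 0.05 over 15868 tested genes), where 1 gene, Parp12, passed, or 0.00630% of those tested. No member reached an unadjusted p of 0.05 either, against 5.51% of all tested genes. The median log2 fold change of the members was 0.03, with 5 above 0 and 5 below, beside a median of 0.00 over all tested genes. DESeq2 called 0 members, against 1.86% of the 16389 genes to which it gave an adjusted p. At an unadjusted p under 0.05 DESeq2 had 1 of the 10 members, Nmnat3, against 2173 of the 21358 genes with a count that it fitted. With limma-voom the count of members was 0 at either threshold. Over the whole table it called 0 of 15868 genes, missing Parp12 as well, so its 0 called members carry no information. At an unadjusted p under 0.05 limma-voom had 747 of those 15868 genes. For 6 members the 95% interval excluded a 2-fold change in either direction, against 46.7% of all tested genes, and for 4 of these it excluded a 1.5-fold change, against 28.8%. For 3 members the groups did not overlap, against 34.9% of tested genes.

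**Figure D2:**
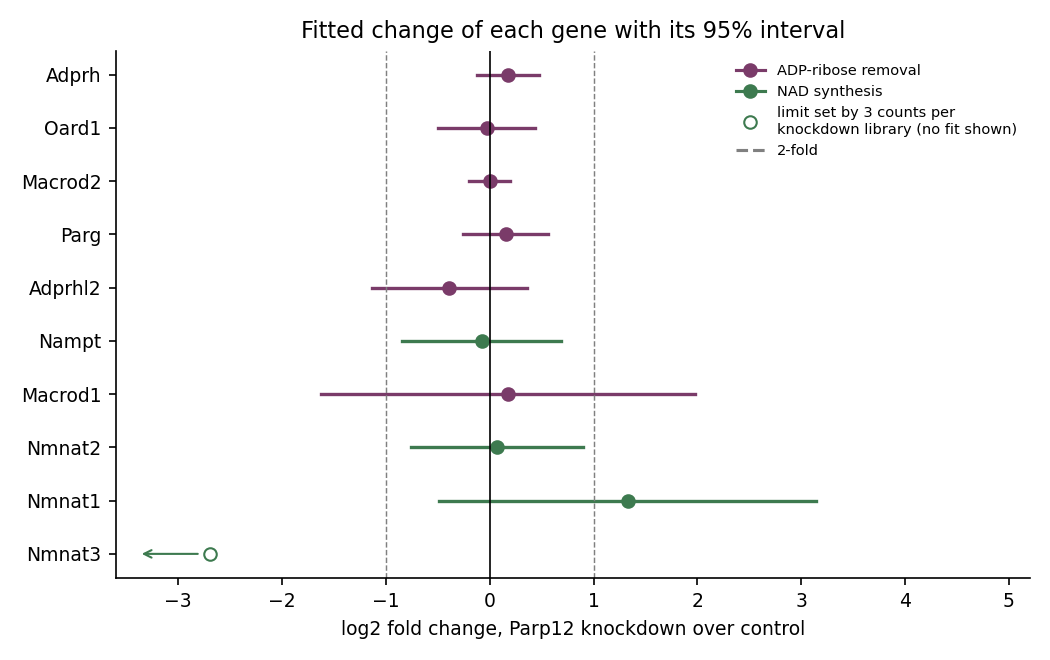
Fitted log2 fold change of each gene, knockdown over control, as points with 95% intervals; the open circle for Nmnat3 is the limit set by 3 counts per knockdown library, and dashed lines mark 2-fold. Adprh, Oard1, Macrod2, Parg, Nampt and Nmnat2 lie wholly within the dashed lines, and every interval drawn spans 0. The fitted interval of Nmnat3, -16.63 to 1.83, is not drawn and also spans 0.

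Among the enzymes that act on single ADP-ribose units, the 2 abundant macrodomain genes had nearly the same means in both groups. Macrod2 lies on chromosome 2 from 140395309 to 142392966, a span of 1997658 bases on the plus strand (gene coordinates are those of the deposited table, build mm10). It had 203 and 214.6 CPM in the knockdown libraries, against 208.9 and 207.9 CPM in the controls. The controls sat between the knockdowns, and the log2 fold change was -0.00 (95% interval -0.20 to 0.20), the narrowest interval of the 10. Oard1, on chromosome 17 from 48410014 to 48417266, had 29.6 and 33.4 CPM in the knockdown libraries, against 31.0 and 33.0 CPM in the controls. The groups overlapped again, with a log2 fold change of -0.03 (-0.49 to 0.44).

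Macrod1, on chromosome 19 from 7056810 to 7198057, was far lower and uneven between libraries. It had 60 and 150 counts in the knockdown libraries, against 52 and 152 counts in the controls. In both groups the library numbered 2 was the higher, so the groups overlapped. The log2 fold change was 0.18 (-1.63 to 1.98), so that neither a 2-fold rise nor a 2-fold fall was excluded.

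Adprh, on the minus strand of chromosome 16 from 38444030 to 38452703, was the only removal gene whose groups did not overlap. It had 80.1 and 86.4 CPM in the knockdown libraries, against 73.7 and 73.4 CPM in the controls. The mean was 83.2 ± 4.49 CPM in the knockdowns and 73.5 ± 0.268 CPM in the controls (SD, n = 2 each). Its log2 fold change of 0.17 (SE 0.14) had an interval of -0.13 to 0.47, and edgeR gave an adjusted p of 0.906. Both knockdown libraries lay above both controls for 18.0% of all tested genes.

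Parg, for the enzyme that cuts chains, and Adprhl2, for the one that frees serine, scattered more. Parg, on chromosome 14 from 32201949 to 32297550, had 58.5 and 44.5 CPM in the knockdown libraries, against 44.2 and 49.3 CPM in the controls. Only the knockdown library of replicate 1 stood above the controls, and the log2 fold change was 0.15 (-0.25 to 0.56). Adprhl2, on the minus strand of chromosome 4 from 126316047 to 126321703, had 10.4 and 18.3 CPM in the knockdown libraries, against 15.5 and 21.4 CPM in the controls. The knockdown library of replicate 1 was the lowest and the other lay between the controls. Its log2 fold change was -0.39 (-1.14 to 0.35), and leaving out 1 library at a time moved it between -0.82, without knockdown replicate 2, and -0.01, without knockdown replicate 1.

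As a group the removal genes summed to 392.2 ± 13.1 CPM in the knockdown libraries and 381.6 ± 9.96 CPM in the controls (SD, n = 2 each). The difference was smaller than the SD of the knockdown libraries and slightly larger than that of the controls. Macrod2 and Adprh made up most of that sum. An exact two-sided permutation test of 2 libraries against 2 cannot go below 0.333, so no such test is given.

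Of the NAD genes, Nampt and Nmnat2 had group means that differed by less than the SD of either group. Nampt, on chromosome 12 from 32819545 to 32853349, had 11.5 and 16.3 CPM in the knockdown libraries, against 17.2 and 11.4 CPM in the controls. Each group thus had a high and a low library, and the log2 fold change was -0.08 (-0.84 to 0.69). It was 0.28 without control replicate 1 and -0.34 without control replicate 2. Nmnat2, on chromosome 1 from 152954993 to 153119261, had 11.96 and 9.13 CPM in the knockdown libraries, against 8.82 and 11.6 CPM in the controls. Its groups also overlapped, with a log2 fold change of 0.07 (-0.76 to 0.90), which ran between -0.15 without knockdown replicate 1 and 0.26 without control replicate 2.

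Nmnat1, the nuclear NMNAT gene on the minus strand of chromosome 4 from 149467572 to 149485202, had 201 and 83 counts in the knockdown libraries, against 102 and 22 counts in the controls. As CPM these were 4.72 and 2.32 in the knockdowns, and 2.26 and 0.537 in the controls. The lower knockdown lay just above the higher control, so the groups did not overlap. The log2 fold change was 1.33 with an SE of 0.84. Its 95% interval ran over -0.49 to 3.14, and edgeR's adjusted p was 0.858. Leaving out 1 library at a time moved it between 0.67, without control replicate 2, and 2.76, without control replicate 1.

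Nmnat3, the mitochondrial NMNAT gene on chromosome 9 from 98287435 to 98420438, had 0 counts in both knockdown libraries, against 34 and 10 counts in the controls. A count of 0 allows up to 0.0705 and 0.0838 CPM in the knockdown libraries, taking 3 counts as the limit, against 0.752 and 0.244 CPM in the controls. With that limit per library, the knockdown mean was at least 6.46-fold lower than the control mean. This limit moved with the control library: it was 3.17-fold without control replicate 1 and 9.75-fold without control replicate 2. The adjusted p was 0.841 by edgeR and 0.368 by DESeq2, so the difference did not pass either test. Nmnat3 entered the test through the controls alone, where its lower library was close to the minimum of 0.239 CPM that 10 counts set. Without control replicate 1, or with a minimum of 1 CPM, it was not tested. Such a pattern, 0 counts in both libraries of one group and at least 10 in both of the other, held for 2.55% of tested genes. The knockdowns were the group at 0 for 1.01% of tested genes, and the controls for 1.53%. The second part of this pattern is largely set by the filter, since a gene at 0 in one group is tested only through the other. All 161 tested genes at 0 in both knockdown libraries showed it. Only 2792 tested genes lay at or below 1 CPM, as Nmnat3 did, and the share at that level was not taken.

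The 4 NAD genes summed to 27.9 ± 0.266 CPM in the knockdown libraries and 26.4 ± 3.70 CPM in the controls (SD, n = 2 each), a difference within the spread of the controls. Their median log2 fold change was -0.00, and it is set by Nampt and Nmnat2, so placing Nmnat3 at its limit leaves it as it is. Per length, Nmnat2 was the highest of the NMNAT genes in all 4 libraries. The order of levels within the NMNAT genes was Nmnat2, Nmnat1 and Nmnat3 in each library.

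The spread between the 2 libraries of a group differed between members, also beside genes of like level. For Macrod2 the higher library was 1.06 times the lower in the knockdowns and 1.005 times in the controls, where genes of like level (mean CPM within 2-fold) had medians of 1.07 and 1.08. For Macrod1 these ratios were 2.97 in the knockdowns and 3.23 in the controls, against medians of 1.74 and 1.82. For Nmnat1 they were 2.04 and 4.20, against 1.77 and 1.85. For Adprhl2 they were 1.76 and 1.38, against 1.25 in both groups. For Nampt they were 1.42 and 1.51, against 1.27 in both. Parg was uneven in the knockdowns, at 1.31 against 1.14, and stood at 1.11 against 1.15 in the controls. For Nmnat2 the ratios were 1.31 and 1.32, against 1.32 in both. Nmnat3 had a ratio of 3.08 in the controls and none in the knockdowns. Among the 1348 genes of like level to Nmnat3, the median ratio was not finite in either group. At that level a library at 0 counts, which leaves no finite ratio, was thus common within a group.

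**Figure D3:**
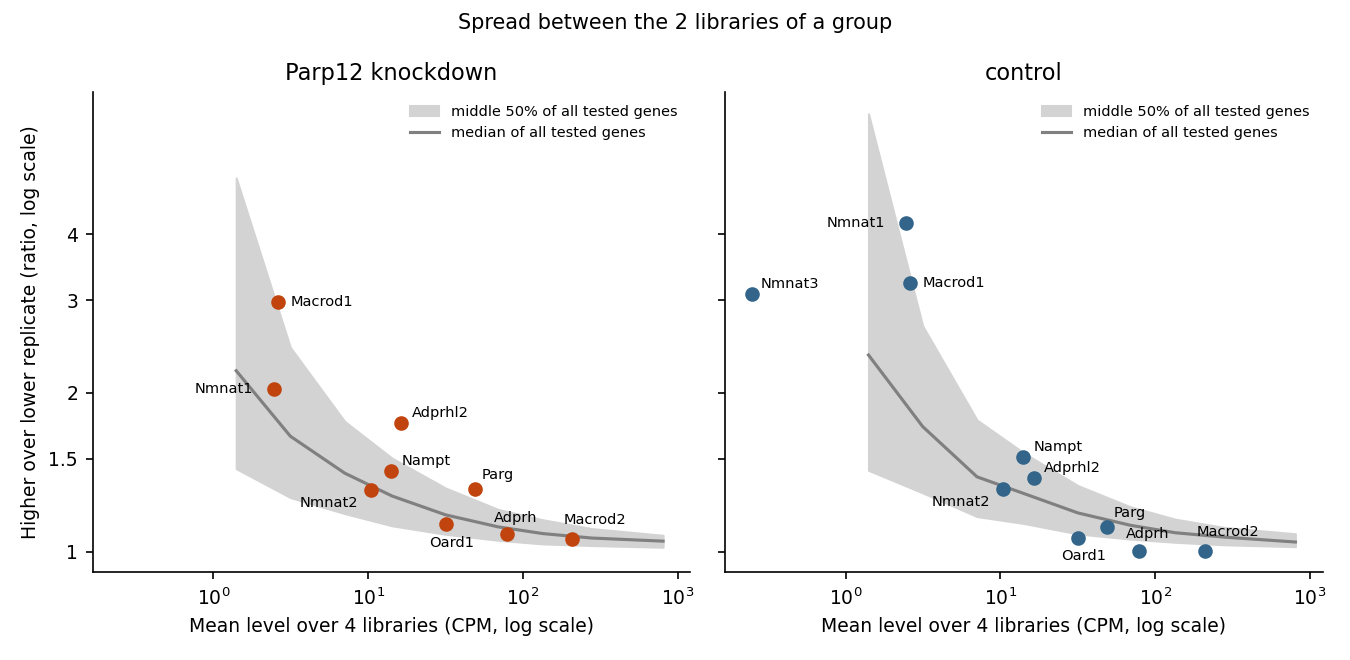
Ratio of the higher to the lower library within each group against the mean level over 4 libraries (CPM). Both axes are log, with knockdown left and control right. Points are members, and the grey line and band are the median and middle 50% of tested genes above 1 CPM, by level. The 2792 tested genes at or below 1 CPM, the level of Nmnat3, are not in the band. Macrod2, Adprh, Parg and Oard1 lie at ratios of at most 1.31, while Macrod1 and Nmnat1 reach 2.97 in the knockdowns and 4.20 in the controls; Nmnat3, at 0 counts in both knockdown libraries, has no ratio on the left.

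Other genes of ADP-ribose and NAD metabolism give the setting. Of 45 in the table, 32 were tested and 0 passed edgeR's threshold in either direction, with a median log2 fold change of -0.06. At an unadjusted p of 0.05 by edgeR the count was 1, against 5.51% of all tested genes. DESeq2 called 0 of the list, against 1.86% of the genes to which it gave an adjusted p. Limma-voom called 0 here and 0 over the whole table. The levels of the 45 genes summed to 1301 and 1321 CPM in the knockdown libraries and 1302 and 1346 CPM in the controls.

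Among partners of ADP-ribose turnover, Hpf1 was the highest. Its product directs PARP1 and PARP2 to serine, the residue that the Adprhl2 product frees. Hpf1 had 337.7 and 339.7 CPM in the knockdown libraries, against 367.7 and 386.9 CPM in the controls. The knockdowns were below both controls, as for 16.8% of tested genes, with a log2 fold change of -0.16 (interval -0.32 to 0.01, adjusted p 0.835 by edgeR). Per length, Hpf1 was between 2.53 and 3.39 times as high as Adprh.

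The other routes to NAD summed to 40.0 and 55.7 CPM in the knockdown libraries and 46.2 and 47.4 CPM in the controls. Nadsyn1, for the last step of the routes that start from nicotinic acid and tryptophan, was the highest of that list. It had 15.9 and 18.6 CPM in the knockdown libraries, against 23.3 and 22.9 CPM in the controls, with an adjusted p of 0.857 by edgeR. Nmrk1, which phosphorylates nicotinamide riboside, had the smallest p of the list. It had 107 and 294 counts in the knockdown libraries, against 60 and 3 counts in the controls. Its log2 fold change was 2.80 (SE 1.01), with an unadjusted p of 0.0156 and an adjusted p of 0.835 by edgeR. Haao, Qprt, Ido1, Acmsd and Nmrk2, named after their values were seen, had 0 counts in all 4 libraries, which allows up to 0.0838 CPM in the shallowest.

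Genes that use NAD or carry it were led by Nadk, the cytosolic NAD kinase. Nadk had 132.3 and 118.7 CPM in the knockdown libraries, against 110.6 and 110.9 CPM in the controls, and its adjusted p was 0.861 by edgeR. Sirt1, an NAD-dependent deacetylase, had the smallest p there, with 51.4 and 66.4 CPM in the knockdowns and 48.6 and 43.3 CPM in the controls (adjusted p 0.835). Cd38 and Bst1, for enzymes that break NAD down, were at 0 counts in all 4 libraries and were named after their values were seen. In the PARP family besides Parp12, 13 genes were tested and 0 were called. Tiparp, for a PARP that attaches single units, led it in level and in p. It had 605.1 and 521.7 CPM in the knockdown libraries, against 724.4 and 601.8 CPM in the controls (adjusted p 0.835 by edgeR).

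**Figure D4:**
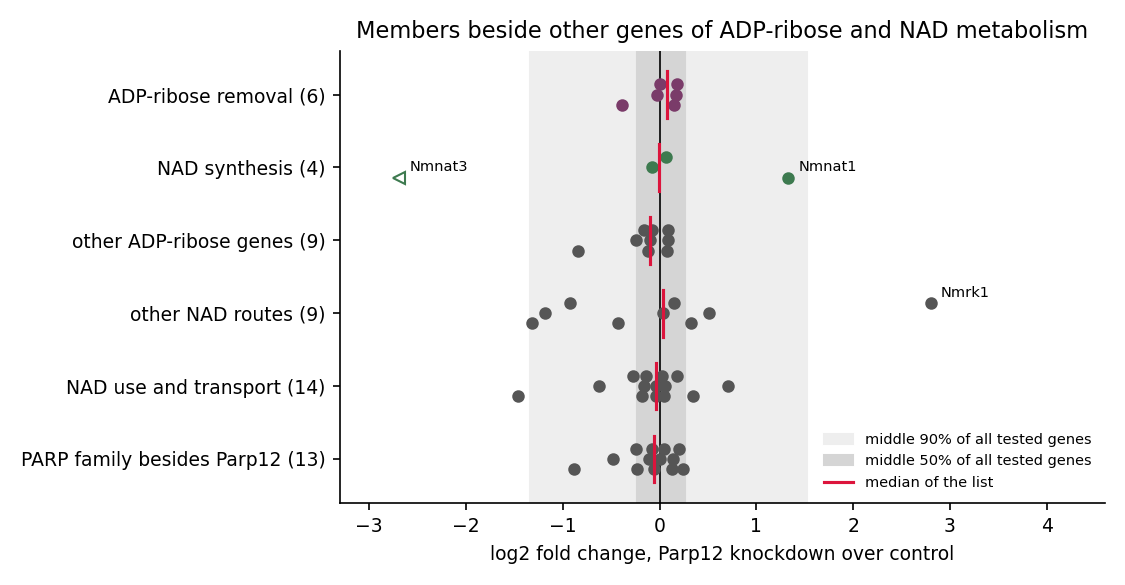
Fitted log2 fold changes, knockdown over control, of the tested genes of each list (number in brackets), with list medians in red and the middle 50% and 90% of all tested genes as grey bands; the open triangle is the limit for Nmnat3. The 6 removal genes lie within the wider band, Nmnat1 is at 1.33, Nmrk1 at 2.80, and the limit for Nmnat3 is at -2.69.

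Nmnat3 had the smallest p of the members, and the genes whose pattern over the 4 libraries was most like it were Sarm1 and Enpp1. Likeness was the root mean square difference of centred log2 CPM, which was 1.21 for Sarm1 and 1.32 for Enpp1 among 54 candidates from the members and the listed genes. The next candidates stood at 1.39, 1.43 and 1.47, so the named genes were only slightly nearer. How near a gene without any change would lie was not worked out. Sarm1, for an enzyme that cleaves NAD, had 22 and 52 counts in the knockdown libraries, against 104 and 120 in the controls. Enpp1, for a surface enzyme that cleaves nucleotides, had 28 and 12 counts in the knockdown libraries, against 47 and 32 in the controls. These genes were picked for that likeness, so their direction is a description only.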

How the data were processed

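The series holds 4 RNA-seq libraries, grouped and numbered by their titles. The labels' protocols describe poly(A) selection from micro-kit total RNA before Illumina library preparation. The deposited table holds the authors' raw counts per gene, with summed exon lengths. Build mm10 is named in the submitters' processing notes, as are DESeq2 1.28.1, featureCounts 2.0.0, STAR 2.7.5b and Trim Galore 0.6.4, without roles. The sources used here do not state strand, multi-mapping or pairing settings. All members had the same span in GENCODE vM21.

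From the counts, edgeR 4.0.16 (R 4.3.3) kept 15868 genes with filterByExpr (at least 10 counts in enough libraries, 15 in total), scaled by TMM, and fitted group alone with estimateDisp and glmQLFit (robust, legacy off). Tests were two-sided, with Benjamini-Hochberg adjustment over all tested genes. CPM and CPM per kilobase use library totals, and likeness used a prior count of 2. Limits of 3 counts cover counting error only. Nothing says that replicates came from separate animals, so p-values may measure technical spread. Replicates differed beyond counting noise (chi-square per degree of freedom 33.1 in the knockdowns and 39.0 in the controls). The members and lists were chosen with earlier results of these data known. The naming rule took Parp12, all members, the genes with the highest CPM and the smallest p in each of the 4 lists of ADP-ribose, NAD and PARP genes, the highest gene in each marker list, and the 2 genes most like the member with the smallest p. Genes named for being at 0 counts throughout, and Mos and Zp1, lie outside it and were chosen after their values were seen. The fits were also run on simulated counts, and no statement here rests on the outcome. Alternatives were other scalings and filters, DESeq2 1.42.0, limma-voom (limma 3.58.1), the older edgeR fit (chosen after seeing the data), a replicate block and leaving out each library.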

Additional observations from a re-analysis of the deposited data

How the results depend on the processing

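No member was called under any of the 13 alternatives run. Adprh, Adprhl2 and Nmnat1 kept their sign in all 13, and Nmnat3 in the 11 that gave it a value; the filter of 1 CPM and leaving out control replicate 1 gave it none. Oard1, Macrod2, Parg, Nampt, Macrod1 and Nmnat2 took the other sign in between 1 and 5 alternatives, none of them called. For Macrod1 this spanned -0.75 to 1.21 when single libraries were left out. The median of the members ran from -0.08 to 0.08 when single libraries were left out. Called genes over the whole table numbered 1, against 8 under a minimum of 1 CPM, 305 with DESeq2 and 0 with limma-voom (747 at an unadjusted p under 0.05, against 874 with edgeR). Without single libraries the count was between 1 and 2, the 2 being without knockdown replicate 1. DESeq2 called 2 listed oocyte markers, Mos and Zp1, where edgeR called 0 context genes. Parp12 had a log2 fold change of -7.73 with limma-voom, with an adjusted p of 0.280; the cause was not tested. It was -6.83 without knockdown replicate 1 and -8.51 without knockdown replicate 2. The replicate block called 1 gene and 0 members. Deviations of same-numbered libraries correlated at 0.00802, so the numbers were not taken as pairs. The summed levels had log2 ratios between 0.01 and 0.07 for the removal genes, and between -0.05 and 0.23 for the NAD genes, without single libraries. Intervals of Adprhl2, Macrod1, Nmnat1 and Nmnat3 reached past 2-fold; the part of depth in this was not tested.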
